A study of Homo sapiens with 32 samples.

Results

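The comparison described here sets LNCaP cells stimulated with EGF for 1 hour against LNCaP cells stimulated with NRG-1 for 1 hour. LNCaP is an established prostate cancer cell line with luminal features. The 8 libraries with these labels were taken from the 32 RNA-Seq libraries of the series, 4 for each ligand, and the gene-by-gene test set the ligands directly against each other with the batch as a term. Both groups were kept in charcoal-stripped serum (CSS), a serum from which steroid hormones have been removed, and both received their ligand at 100 ng/mL. The 4 untreated CSS libraries carry the same serum and no ligand, and they give the starting level. The other groups were FBS-grown cells and cells stimulated with either ligand for 5 minutes or 4 hours. Each group holds 2 batches with 2 replicates in each, as the labels number them. All libraries come from 1 cell line, and the equal mass doses are not stated to be equal in molar terms or in receptor occupancy.

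The receptor for EGF is EGFR, and those for NRG-1 are HER3 (ERBB3) and HER4 (ERBB4), and HER2 (ERBB2), which has no ligand of its own, is the preferred partner of the others. Both ligands activate the RAS-ERK and PI3K-AKT pathways. ERK phosphorylates ternary complex factors at serum response elements, and this induces immediate early genes within minutes without new protein synthesis. Their products include the FOS, JUN, EGR and NR4A transcription factors, which act on later genes, and feedback inhibitors such as ERK phosphatases and the EGFR inhibitor ERRFI1.

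Total expected counts ranged from 69090671 to 80300923 in the EGF libraries and from 73597894 to 90465137 in the NRG-1 libraries, within the 63822654 to 92401724 of the series. Of 25498 genes in the table, 16995 had at least 5 counts in at least 3 libraries and were tested. The cell label matched the markers: 10 of 10 luminal prostate markers, which include KLK3 and KRT8, had a median above 1 TPM (transcript abundance scaled for length and library), and their summed TPM ranged from 4159 to 4450 with EGF and from 3533 to 4121 with NRG-1. The 5 basal markers summed to 0.50 to 0.64 TPM with EGF and 0.36 to 0.65 TPM with NRG-1, and 1 member each of the fibroblast (6), immune (6) and endothelial (4) lists was above 1 TPM. NRG-1 batch 2 replicate 2 stood somewhat apart: its normalization factor of 0.941 was the lowest of the 8, and among list members MKI67 was at 52.8 CPM there against 81.8 to 100 in the other NRG-1 libraries, B2M at 319 against 222 to 256, and PPIA at 2230 against 1360 to 1570. Without it, the comparison of EGF with NRG-1 made 30 calls, 24 of them among the 29 genes described, and FLRT3, GPR183, NWD2, FGL2 and ACTA1 were not called. In whole-culture RNA such as this, fewer cells of one kind and less RNA per cell cannot be told apart.

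EGF induced part of the early response more strongly than NRG-1 did. At an adjusted P value under 0.05 (edgeR quasi-likelihood test over all genes tested) and a log2 difference beyond 1 in either direction, 29 genes were called, 0.171% of those tested, and 29 of the 29 were higher with EGF. The EGF-to-NRG-1 ratio of mean CPM (counts scaled to library size) ran from 2.07 for ATF3 to 4.18 for FLRT3, with a median of 2.44. FLRT3 entered the test only through the EGF libraries, and without it the highest ratio was 3.93 (TIMP3). All 4 pairs of libraries with the same batch and replicate number went in that direction for each of the 29 genes. In 27 of them the EGF and NRG-1 libraries did not overlap, the exceptions being EGR2 and EGR4, whereas all 4 EGF libraries lay above all 4 NRG-1 libraries in 2.45% of the genes tested. The 29 genes were chosen on these same libraries, which favors both counts, so they are given as a description. The limit on the log2 difference passed between EGR2 (1.03), ATF3 (1.05) and RASD1 (1.07) on the inside and SNAI2, GBP1 and GPR115 (0.98 each) on the outside. Without that limit, 160 genes (0.941%) were higher with EGF and 20 (0.118%) were lower, and the lowest log2 difference among them, that of TXNIP, was −0.98. DESeq2 also called 0 genes lower past the limit, but some alternatives did call lower genes: PYGM with the replicate block, PGBD3 and PPAN-P2RY11 in batch 1 alone, TXNIP in batch 2 alone or without any 1 of 3 libraries of batch 1, and LOC101927814 without EGF batch 1 replicate 1. In all, 1397 genes had an unadjusted P value under 0.05 (edgeR, both directions).

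Most of the 29 genes rose with both ligands. Against CSS, 29 of 29 were called higher with EGF and 27 of 29 with NRG-1, where 1.46% and 0.806% of all genes tested were called higher. The exceptions with NRG-1 were FLRT3, an adhesion protein with leucine-rich repeats, and NWD2. These counts share the EGF and NRG-1 libraries with the direct comparison and are given as a description. The rise above CSS with NRG-1, in mean CPM, amounted to 17.3% (FLRT3) to 45.6% (EGR2) of the rise with EGF, with a median of 33.3%. The fold limit that chose the 29 genes on these libraries keeps this share low. The share therefore describes the selection and is no measure of NRG-1 strength in general. Without FLRT3, with its 1 to 4 counts per NRG-1 library, the lowest share was 21.8% (TIMP3). Of the 160 genes higher with EGF at any fold, 158 were also higher than CSS with EGF at any fold and 130 were higher than CSS with both ligands, against 6% and 3.91% of all genes tested. The 160 genes were chosen on the same EGF and NRG-1 libraries, which favors the first count, so both are a description.

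**Figure D1:**
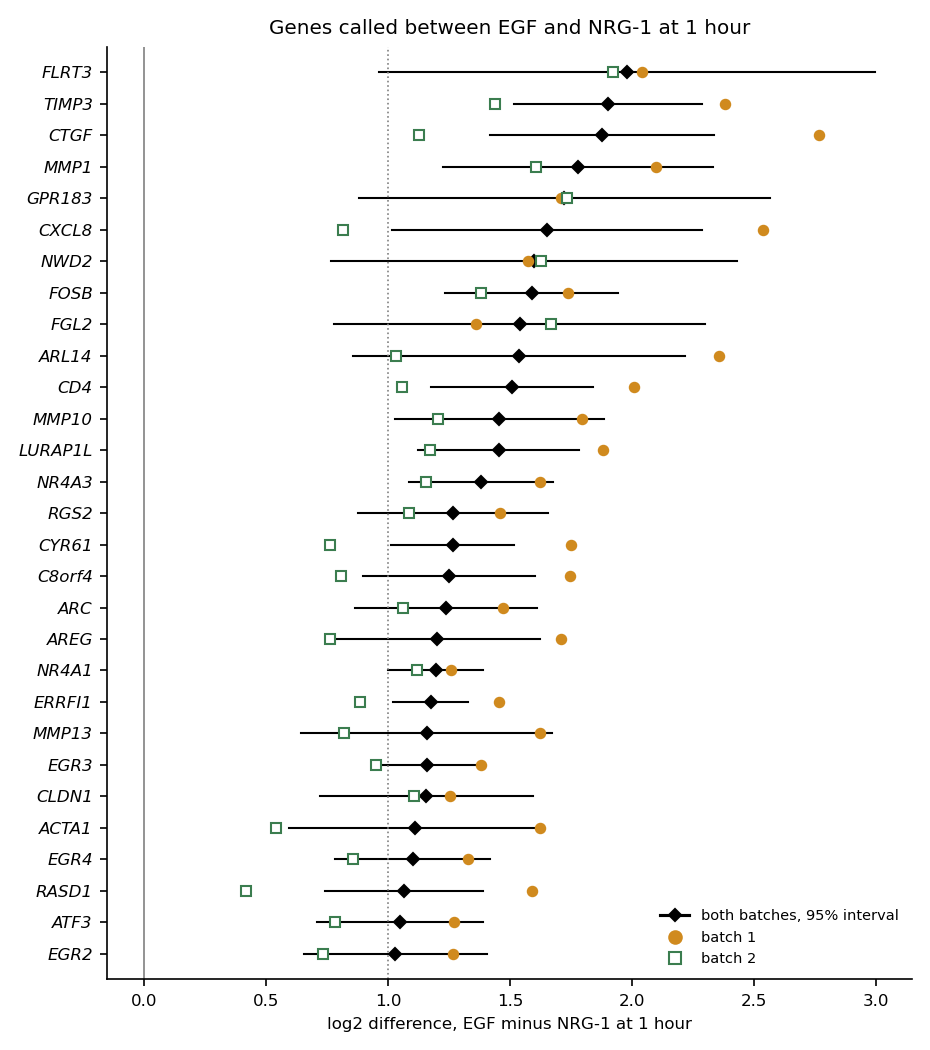
Log2 difference between EGF and NRG-1 at 1 hour (x axis) for each of the 29 genes called (y axis), with the estimate over both batches (diamond, line showing its 95% interval) and the estimates within batch 1 (filled circle) and batch 2 (open square) from a fit with a level for each group in each batch. Every estimate lies above 0, and 26 of 29 are larger in batch 1.

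The difference was larger in batch 1 for most of these genes. In a fit that gave each group its own level in each batch, chosen after seeing the data, the median log2 difference of the 29 genes was 1.62 in batch 1 and 1.06 in batch 2, it was above 0 in both batches for 29 of 29, and it was larger in batch 1 for 26 of 29, against 54.8% of all genes tested. The change in the difference between batches passed an adjusted P value under 0.05 in 3 of the 29 genes and in 0.0235% of genes tested (edgeR). These were CYR61 (1.75 in batch 1 and 0.76 in batch 2, adjusted P = 0.00732), ERRFI1 (1.45 and 0.88, adjusted P = 0.0162) and RASD1 (1.59 and 0.42, adjusted P = 0.0162). The remaining gene that passed was KLF6, a zinc-finger factor under the fold limit (1.15 and 0.26, adjusted P = 0.000182). Fitted on its own, batch 1 gave 43 calls, 41 of them higher with EGF, and held 25 of the 29 genes, whereas batch 2 gave 4 calls: 3 of the 29 genes and TXNIP, which was lower. The fit with a level for each group in each batch shares its estimate of spread over both batches. There, batch 1 gave 38 calls with 24 of the 29 genes, and batch 2 gave 11 calls with 10 of the 29.

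Transcription factors of the immediate early class made up 7 of the 29 genes. Per-library values are given as CPM in the order batch 1 replicates 1 and 2, then batch 2 replicates 1 and 2. FOSB, a FOS family subunit of the AP-1 factor, stood at 185, 190, 108 and 113 CPM with EGF and at 56.6, 55.5, 45.4 and 39.5 CPM with NRG-1, and CSS libraries lay between 0.544 and 1.13. The lowest EGF library was therefore well above the highest NRG-1 library, and the log2 difference was 1.59 ± 0.17 (SE, adjusted P = 7.16e-07, n = 4 per group, edgeR). NR4A1, an orphan nuclear receptor, stood at 603, 606, 443 and 428 CPM with EGF against 256, 248, 208 and 193 CPM with NRG-1 and 8.26 to 8.97 in CSS. Its groups were also separate, its difference was 1.20 ± 0.09 (adjusted P = 2.26e-09), and its estimates in the 2 batches were close, at 1.26 and 1.12. NR4A3, its relative at 1.79 TPM with EGF against 387 TPM for NR4A1, differed by 1.38 ± 0.14 (adjusted P = 3.55e-07).

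The EGR factors, zinc-finger proteins that bind GC-rich elements, differed among themselves. EGR3 stood at 627, 650, 364 and 369 CPM with EGF and 257, 233, 198 and 181 CPM with NRG-1, from 0.0607 to 0.201 in CSS. Its groups did not overlap, and the log2 difference was 1.16 ± 0.11 (adjusted P = 4.71e-08). EGR4 stood at 18.0, 17.6, 7.42 and 7.68 CPM with EGF and 7.75, 6.38, 4.69 and 3.63 CPM with NRG-1, and had no count in any CSS library. Here the 2 batch 2 EGF libraries were no higher than the top NRG-1 library, although each EGF library exceeded its NRG-1 partner (1.10 ± 0.15, adjusted P = 7.75e-05). EGR2 showed the same layout, with 149 and 149 CPM in batch 1 and 40.0 and 41.0 CPM in batch 2 with EGF against 64.0, 60.1, 25.5 and 23.2 CPM with NRG-1. Its difference was 1.03 ± 0.18 (adjusted P = 0.00108). The EGR2 call was lost with DESeq2 (adjusted P = 0.0844), without the batch term, in batch 2 alone and in the limma fits on TPM. These were 6 of 12 alternatives that kept every library of the batches used. The EGR2 difference fell under the fold limit without EGF batch 1 replicate 1 (0.92) or replicate 2 (0.93). The EGR4 call was lost without the batch term and in batch 2 alone. Reads shared between relatives such as the EGR, NR4A and MMP genes may be split between them in expected counts.

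By contrast, EGR1 and FOS showed no difference that passed the test. EGR1, which was outside the rule for named genes and was looked up after its value was seen, stood at 1530, 1600, 1060 and 1070 CPM with EGF and 1630, 1480, 1270 and 1030 CPM with NRG-1, against at most 1.37 CPM in CSS. The groups overlapped, and the log2 difference was −0.04 (95% interval −0.66 to 0.58). FOS, named on the same terms, stood at 175, 168, 108 and 107 CPM with EGF and 148, 143, 150 and 137 CPM with NRG-1. EGF was above NRG-1 in batch 1 and below it in batch 2, and the difference over both was −0.03 (95% interval −0.53 to 0.48), an interval too wide to show that the ligands induced FOS alike. The reversal between the batches in FOS was within error (0.66 ± 0.34, unadjusted P = 0.066, adjusted P = 1, edgeR).

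ATF3, a stress- and growth factor–induced partner of JUN proteins, was the most abundant of the 29 genes with EGF at 626 ± 139 TPM (SD, n = 4), against 279 ± 24.4 TPM with NRG-1 and 49.7 TPM in CSS. In CPM it stood at 810, 764, 529 and 590 with EGF, whereas the NRG-1 libraries had 333, 319, 274 and 376. All EGF libraries were above all NRG-1 libraries, and the difference was 1.05 ± 0.17 (adjusted P = 0.000248). It was under the fold limit without EGF batch 1 replicate 1 (0.95), EGF batch 1 replicate 2 (0.98) or NRG-1 batch 2 replicate 1 (0.97). Of the 10 AP-1 subunits in the list, 2 were called (FOSB and ATF3) and 6 passed an adjusted P value under 0.05 at any fold, with FOSL1 (0.65), FOSL2 (0.62), JUN (0.57) and MAFF (0.45) under the limit. Over all genes tested, 0.171% were called and 0.941% were higher with EGF at any fold. This list and those below were chosen with earlier results of these data known, so their counts are a description. For JUN the log2 change against CSS was 0.46 with EGF (adjusted P = 0.00156) and −0.11 with NRG-1 (adjusted P = 0.661). The list's median log2 difference was 0.53, against −0.00 over all genes tested. The EGR, NR4A and SRF-TCF list, which holds serum response factor and its ternary complex partners, had 5 of 13 members called and 6 at any fold, the sixth being SRF itself (0.53), with a median of 0.31.

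**Figure D2:**
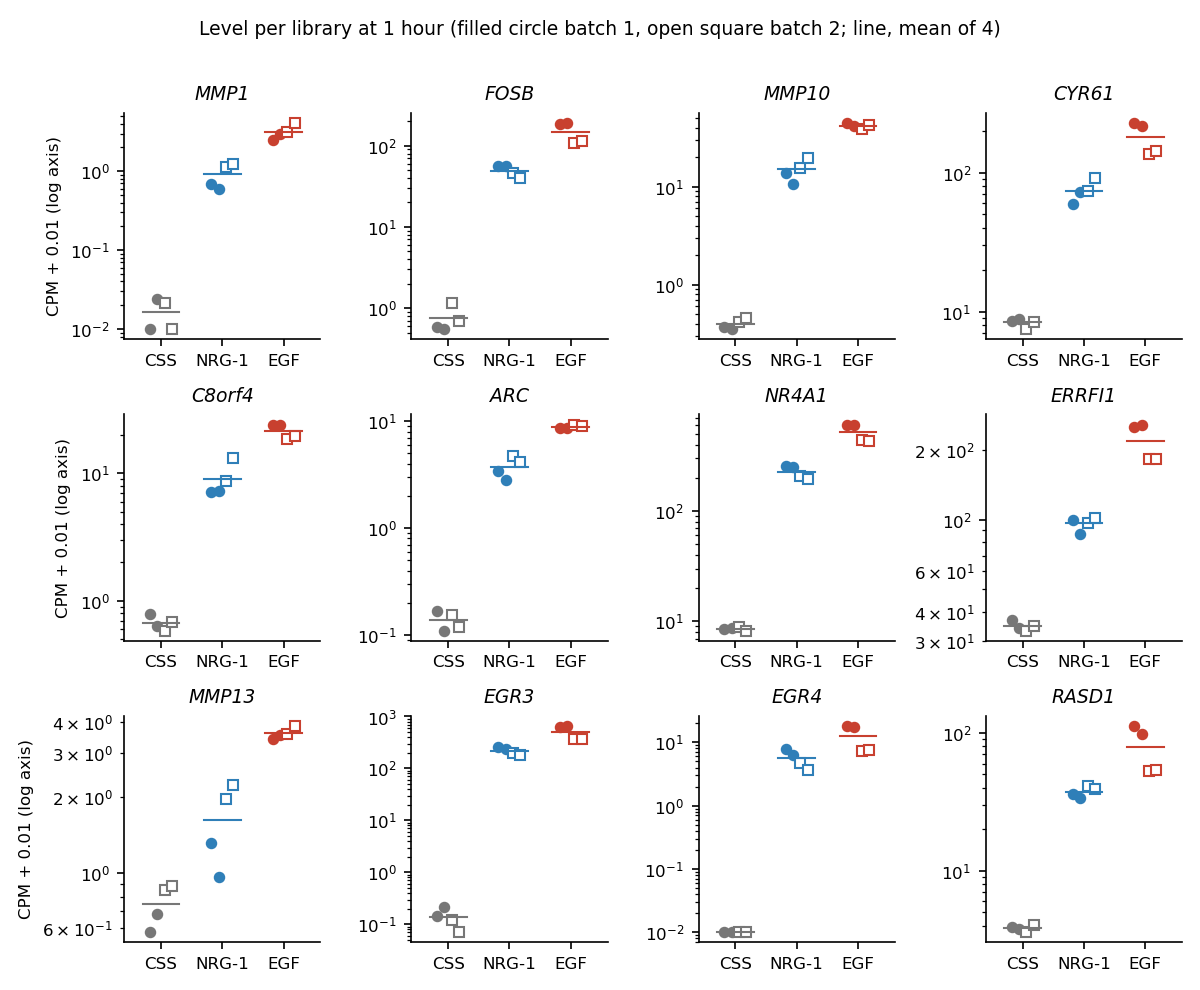
Level in each library (y axis, CPM plus 0.01 on a log axis) in CSS, with NRG-1 at 1 hour and with EGF at 1 hour (x axis) for the 12 genes with the largest difference among those of average log2 CPM of at least 1. Filled circles are batch 1, open squares batch 2, and lines are means of 4; the EGF and NRG-1 groups are separate in each panel but that of EGR4.

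Secreted and matrix proteins formed the next group. CYR61 and CTGF encode matricellular proteins of the CCN family that bind integrins. CYR61 stood at 227, 215, 136 and 142 CPM with EGF and 59.0, 72.4, 73.1 and 90.7 CPM with NRG-1, against 7.51 to 8.87 in CSS. All EGF libraries were above all NRG-1 libraries, but the gap was smaller in batch 2, and the difference was 1.27 ± 0.12 (adjusted P = 1.17e-07). CTGF stood at 8.09, 7.32, 7.87 and 8.66 CPM with EGF and 1.06, 1.20, 3.67 and 3.89 CPM with NRG-1, with at most 3 counts in a CSS library. The EGF libraries were alike, whereas the NRG-1 libraries of batch 2 were above those of batch 1 and below EGF (1.88 ± 0.22, adjusted P = 3.07e-06).

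Among extracellular proteases and their inhibitors, 4 of 15 members tested were called, against 0.171% of all genes tested, and no other passed at any fold. MMP10 (stromelysin 2) stood at 44.5, 41.0, 38.5 and 42.9 CPM with EGF and 13.9, 10.7, 15.6 and 19.7 CPM with NRG-1, against 0.344 to 0.449 in CSS. Its EGF libraries were within a narrow range and apart from the rest, with a difference of 1.46 ± 0.21 (adjusted P = 6.35e-05). The interstitial collagenase MMP1 stood at 2.45, 2.97, 3.11 and 4.08 CPM with EGF and 0.675, 0.589, 1.12 and 1.23 CPM with NRG-1 (1.78 ± 0.27, adjusted P = 0.000341). Collagenase 3, MMP13, stood at 3.39, 3.54, 3.57 and 3.83 CPM with EGF and 1.30, 0.955, 1.96 and 2.23 CPM with NRG-1 (1.16 ± 0.25, adjusted P = 0.011). Its call rests on the NRG-1 libraries of batch 1: without replicate 1 or replicate 2 of them the adjusted P value passed 0.05, reaching 0.0684. TIMP3, an inhibitor of metalloproteinases, also rose more with EGF, at 7.62, 7.77, 4.05 and 4.40 CPM against 1.40 to 1.66 CPM with NRG-1 (1.90 ± 0.19, adjusted P = 1.62e-07), so proteases and inhibitor were higher together. TIMP3 lies within SYN3 on the other strand, and the study's methods describe counting in stranded mode. The member with the largest drop, MMP14, differed by −0.56 at under 0.1 CPM (adjusted P = 0.711).

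CXCL8, the neutrophil chemokine interleukin 8, was the single member called among 13 tested genes of NF-κB feedback and cytokines, at 2.02, 2.27, 1.23 and 1.17 CPM with EGF and 0.384, 0.353, 0.489 and 0.881 CPM with NRG-1. The groups were separate, and the difference was 1.65 ± 0.31 (adjusted P = 0.00207). The list's median was 0.08, and IL11 had its lowest value (−0.45, adjusted P = 0.528).

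ERBB ligands and regulators of ERBB signaling came next. AREG, which encodes the EGFR ligand amphiregulin, stood at 4.35, 4.13, 2.83 and 3.05 CPM with EGF and 1.28, 1.31, 1.70 and 1.76 CPM with NRG-1, against 0.157 to 0.401 in CSS. Each EGF library was above each NRG-1 library, with a difference of 1.20 ± 0.21 (adjusted P = 0.00068). HBEGF, another EGFR ligand, stood at 58.8, 58.8, 53.0 and 51.9 CPM with EGF against 34.2 to 37.9 CPM with NRG-1 and differed by 0.63 ± 0.07 (adjusted P = 1.85e-06), under the fold limit. In TPM, HBEGF reached 44.8 with EGF and 26.7 with NRG-1, and AREG 5.83 and 2.27. The other 6 ligand genes tested (EGF, TGFA, BTC, NRG2, NRG3 and NRG4) had differences between −0.10 and 0.40 and none passed the test.

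The receptors themselves did not separate the groups. Mean levels with EGF and NRG-1 were 103 and 91.9 TPM for ERBB2, 72.9 and 65.5 TPM for ERBB3, and 9.93 and 7.98 TPM for EGFR, in that order of abundance in both groups, while ERBB4 was at 0.0175 and 0.0125 TPM. The log2 differences were 0.09 (95% interval −0.11 to 0.29) for ERBB2, 0.09 (−0.11 to 0.29) for ERBB3 and 0.22 (−0.09 to 0.52) for EGFR, and for ERBB4 the interval was wide (−0.70 to 1.13).

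ERRFI1 (also MIG6), which binds the EGFR kinase domain and inhibits it, had the lowest adjusted P value of all. It stood at 253, 258, 183 and 184 CPM with EGF and 99.3, 87.2, 97.1 and 102 CPM with NRG-1, against 33.2 to 37.0 in CSS. EGF libraries of both batches were clear of NRG-1, and the difference was 1.18 ± 0.07 (adjusted P = 4.08e-11). None of the other 11 negative regulators of ERBB receptors passed the test, and LRIG3 had the lowest value (−0.22, adjusted P = 0.121). RASD1, a small GTPase of the RAS family, stood at 112, 97.8, 53.3 and 54.1 CPM with EGF and 35.8, 33.8, 41.2 and 39.3 CPM with NRG-1. The groups did not meet, yet the gap in batch 2 was small, and the difference was 0.87 without EGF batch 1 replicate 1 and 0.96 without EGF batch 1 replicate 2. RGS2, which speeds up GTP hydrolysis by Gq proteins, differed by 1.27 ± 0.19 (adjusted P = 0.000113).

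A minority of the ERK feedback genes was higher with EGF. Of 21 tested members of the ERK feedback and output list, none was called and 5 passed at any fold, all higher with EGF. Over all genes tested, 0.171% were called and 0.941% were higher at any fold. DUSP5, a nuclear ERK phosphatase, led them at 67.3, 65.9, 48.2 and 46.1 CPM with EGF and 29.5, 30.3, 29.0 and 26.8 CPM with NRG-1 (0.97 ± 0.08, adjusted P = 2.25e-09). SPRY2 (0.54), DUSP10 (0.53), SPRED2 (0.52) and the receptor gene EPHA2 (0.37) were the others, and SPRY1 had the lowest value (−0.30, adjusted P = 0.528). DUSP6, the cytoplasmic ERK phosphatase, was not among them.

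The remaining called genes have mixed roles. C8orf4 (now TCIM), a small regulator of β-catenin signaling, stood at 23.8, 24.1, 18.5 and 19.6 CPM with EGF and 7.09, 7.21, 8.69 and 13.1 CPM with NRG-1 (1.25 ± 0.17, adjusted P = 3.12e-05). ARC, best known as a synaptic immediate early gene, stood at 8.57, 8.64, 9.29 and 9.08 CPM with EGF and 3.40, 2.80, 4.67 and 4.12 CPM with NRG-1 (1.24 ± 0.18, adjusted P = 9.48e-05). In both, no NRG-1 library reached an EGF library. CD4, the helper T cell coreceptor, stood at 5.40, 5.12, 4.03 and 3.73 CPM with EGF and 1.15 to 1.88 CPM with NRG-1 (1.51 ± 0.16, adjusted P = 5.99e-07), and no NRG-1 library reached an EGF library. Of 6 immune markers 1, CD68, was above 1 TPM, CD3E and HBB were at or near 0, and the summed TPM of the 6 was 3.58 to 4.52 in EGF libraries and 2.89 to 4.15 in NRG-1 libraries. LURAP1L differed by 1.45 ± 0.16 and CLDN1, a tight junction claudin, by 1.16 ± 0.21, the latter falling to 0.91 when 1 library was left out.

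The other 6 called genes rest on few reads. FLRT3 had 8 to 13 counts in the EGF libraries and 1 to 4 in the NRG-1 libraries, and it is the 1 gene of the 29 that entered the test only through the EGF libraries. Counts with EGF were 15 to 22 for NWD2, 16 to 31 for GPR183 (an oxysterol receptor), 16 to 29 for FGL2 (a fibrinogen-like protein), 19 to 33 for ARL14 (an ARF-like GTPase) and 26 to 57 for ACTA1 (skeletal muscle α-actin). Leaving out 1 library took the adjusted P value of each of the 6 past 0.05 in at least 3 of 8 cases, up to 0.249 for NWD2, 0.24 for FLRT3 and 0.201 for GPR183. ACTA1 shares much of its sequence with other actin genes, so reads may have been split between them. Together with MMP13, these are the 7 of 29 genes whose adjusted P value depended on a single library, and 22 stayed under 0.05 whichever library was left out. Of these 22, 18 also stayed past the fold limit, whereas CLDN1, RASD1, ATF3 and EGR2 fell under it without some library.

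RefSeq promoter sequence was matched for 21 of the 29 genes (GRCh38.p14, whereas the counts were made on hg19; 250 bases before to 50 after the start, CTGF as CCN2). Motifs were searched on both strands. The AP-1 element TGANTCA was in 3 of 21 (14.3%, against 7.76% of 27305 promoters), the cyclic AMP response element TGACGTCA in 1 (4.76% against 1.98%), the CArG box bound by serum response factor in 2 (9.52% against 1.29%), the EGR element GCGNGGGCG in 1 (4.76% against 9.28%) and the ETS core CCGGAAGT in none (0% against 4.44%). A match says only that the letters are present. The 250 bases before the start are printed for 4 genes that stand for different roles among the 29, 5′ to 3′ on the strand of the gene, with the matched motif in capitals. They are the AP-1 element of MMP10 (chr11:102780629-102780878, minus strand) and of CXCL8 (chr4:73740319-73740568, plus strand), the cyclic AMP response element of AREG (chr4:74444886-74445135, plus strand) and the CArG box of ACTA1 (chr1:229434095-229434344, minus strand).
MMP10: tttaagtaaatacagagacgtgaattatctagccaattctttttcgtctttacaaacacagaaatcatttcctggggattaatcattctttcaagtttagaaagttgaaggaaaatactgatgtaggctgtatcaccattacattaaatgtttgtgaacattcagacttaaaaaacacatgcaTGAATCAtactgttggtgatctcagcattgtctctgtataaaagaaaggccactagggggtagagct
CXCL8: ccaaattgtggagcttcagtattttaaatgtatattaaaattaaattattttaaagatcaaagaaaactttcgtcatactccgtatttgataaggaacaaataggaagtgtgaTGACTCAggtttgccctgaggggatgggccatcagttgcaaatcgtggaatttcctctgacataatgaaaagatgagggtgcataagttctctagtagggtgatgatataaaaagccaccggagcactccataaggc
AREG: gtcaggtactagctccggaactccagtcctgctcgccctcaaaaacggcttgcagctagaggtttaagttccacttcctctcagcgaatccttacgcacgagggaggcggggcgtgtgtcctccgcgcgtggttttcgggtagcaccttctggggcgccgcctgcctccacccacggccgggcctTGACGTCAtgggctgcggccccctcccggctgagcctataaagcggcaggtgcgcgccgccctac
ACTA1: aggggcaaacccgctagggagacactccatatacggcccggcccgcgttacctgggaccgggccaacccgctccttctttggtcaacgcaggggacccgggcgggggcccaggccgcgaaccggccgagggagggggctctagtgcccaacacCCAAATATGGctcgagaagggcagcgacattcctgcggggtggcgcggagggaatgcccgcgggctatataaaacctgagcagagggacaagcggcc
The remaining AP-1 match was in FGL2, the other CArG box in GPR183 and the EGR element in NWD2. FGL2, GPR183, NWD2 and ACTA1 are among the called genes that rest on few reads. No sequence was matched for MMP1, ARL14, CD4, CYR61, C8orf4, ARC, MMP13 and EGR3, so the motif shares do not cover all 29 genes.

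Under the fold limit, the genes higher with EGF that had the lowest adjusted P values were DUSP5, TRIB1, ELF3, TUFT1 and KLF4. TRIB1, a pseudokinase that binds MEK1, stood at 396, 387, 264 and 261 CPM with EGF and 202, 186, 174 and 158 CPM with NRG-1 (0.83 ± 0.07, adjusted P = 8.5e-09). ELF3, an epithelial ETS factor, had a log2 change against CSS of 0.88 with EGF and 0.31 with NRG-1 and differed by 0.57 ± 0.05. KLF4, a zinc-finger factor, differed by 0.85 ± 0.09 and TUFT1, which encodes tuftelin, by 0.73 ± 0.07. The list of other immediate early genes, to which KLF4 and TRIB1 belong, had 3 of 34 members called (CTGF, CYR61 and ARC), 14 higher with EGF at any fold and 1, MYC, lower, with a median of 0.23. The anti-apoptotic BCL2 relative MCL1 was among the 14, at 995 CPM with EGF and 730 CPM with NRG-1 (0.44, adjusted P = 0.000273). In the list of SRF-MRTF and YAP cytoskeletal genes, 3 of 18 were higher with EGF at any fold: TPM4 (0.68), CNN2 (0.53) and ZYX (0.43), all actin-associated proteins. For both lists the shares over all genes tested were 0.171% called, 0.941% higher and 0.118% lower at any fold.

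Genes lower with EGF than with NRG-1 were fewer and moved less. TXNIP, an α-arrestin that binds thioredoxin and restrains glucose uptake, stood at 81.7, 81.3, 63.8 and 58.2 CPM with EGF and 132, 148, 135 and 139 CPM with NRG-1, against 388 to 547 CPM in CSS. Both ligands therefore lowered it, EGF further, and no library of one group reached the other; the log2 difference was −0.98 ± 0.07 (adjusted P = 8.31e-10). It fell past the log2 limit of −1 when EGF batch 1 replicate 1, EGF batch 1 replicate 2 or NRG-1 batch 1 replicate 1 was left out. NUAK2, an AMPK-related kinase, showed the same order at lower counts, with 1.21 to 1.35 CPM with EGF, 2.00 to 2.57 CPM with NRG-1 and 6.68 to 9.34 CPM in CSS (−0.89 ± 0.13, adjusted P = 8.76e-05). In the list of PI3K-FOXO repressed and arrestin genes, these and ARRDC4 were the 3 of 28 members that passed at any fold, and the median was 0.04. Over all genes tested, 0.118% were lower with EGF at any fold.

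MYC went against most other immediate early genes. It stood at 196, 206, 213 and 217 CPM with EGF, 281, 272, 279 and 262 CPM with NRG-1 and 254 to 264 CPM in CSS. The EGF libraries were the lowest of the 3 groups and apart from the others: the log2 difference between the ligands was −0.39 ± 0.05 (adjusted P = 1.77e-05), the change against CSS was −0.31 with EGF (adjusted P = 7.7e-05) and 0.09 with NRG-1 (adjusted P = 0.435). ARRDC4, a relative of TXNIP, had the reverse reference: it was at 47.8 to 56.3 CPM with EGF, 52.5 to 58.3 CPM in CSS and 58.6 to 72.5 CPM with NRG-1, and only the change with NRG-1 passed the test (0.25, adjusted P = 0.00054). PARS2, the mitochondrial prolyl-tRNA synthetase, fell by 0.46 with EGF against CSS, with −0.10 for NRG-1 (adjusted P = 0.34). Of the 20 lower genes, 17 were below CSS with EGF and 7 were below CSS with both ligands at any fold, against 3.51% and 1.72% of all genes tested. These counts share their EGF and NRG-1 libraries with the comparison that chose the 20 genes and are a description.

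**Figure D3:**
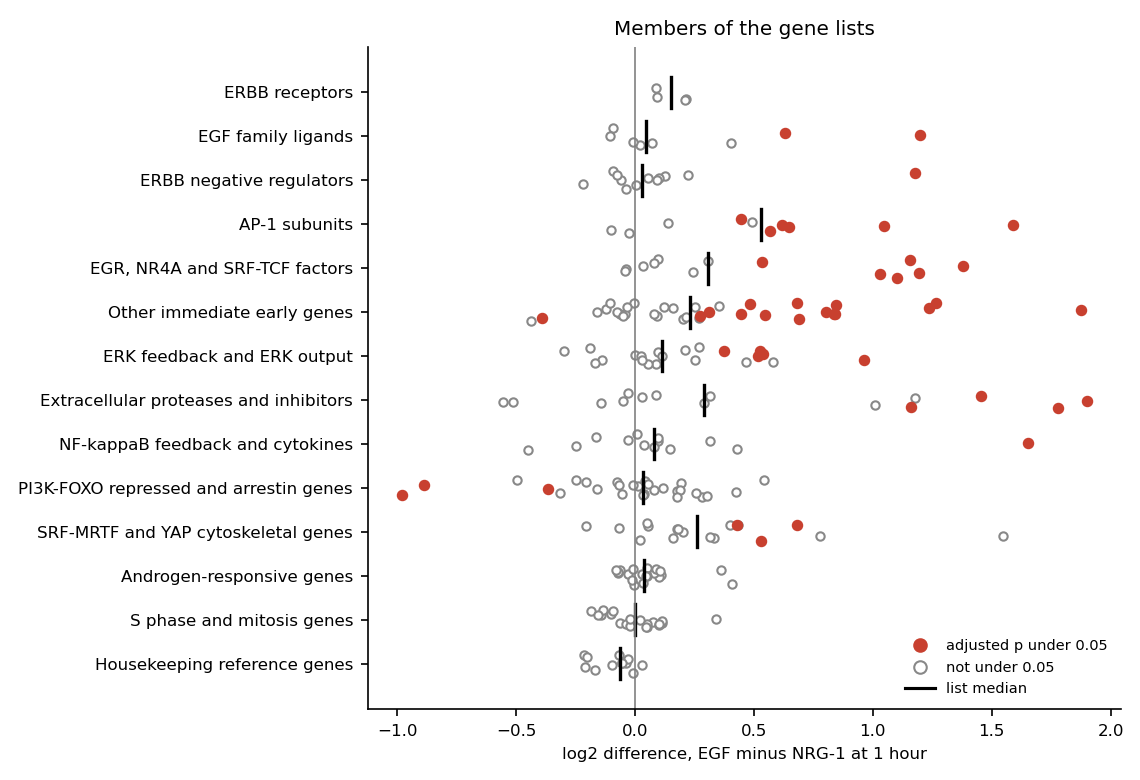
Log2 difference between EGF and NRG-1 at 1 hour (x axis) for each tested member of 14 gene lists (y axis), with filled points for an adjusted P value under 0.05, open points for the rest and a bar at the list median. Filled points lie to the right of 0 except for MYC among the other immediate early genes and 3 members of the PI3K-FOXO list.

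Not all strong early genes separated the ligands. By the rule for genes with a rise beyond 2 on the log2 scale with both ligands and a 95% interval of the difference within ±0.5, the 6 with the highest average CPM were KLF10, IER2, JUNB, ZFP36, NAB2 and DUSP6. JUNB, an AP-1 subunit, stood at 232, 211, 225 and 225 CPM with EGF and 233, 249, 245 and 231 CPM with NRG-1, against 21.6 to 37.8 in CSS. Each EGF library was below its NRG-1 partner but the ranges overlapped, and the difference was −0.10 (95% interval −0.35 to 0.15). DUSP6 stood at 12.5 to 14.4 CPM with EGF and 13.4 to 15.7 CPM with NRG-1 (−0.14, −0.36 to 0.09). ZFP36, which promotes decay of AU-rich mRNAs, was at 94.9 to 117 CPM with EGF and 72.8 to 109 CPM with NRG-1 (0.21, 0.01 to 0.42). The differences of KLF10 (0.16), IER2 (0.12) and NAB2, a corepressor of EGR factors (0.10), were also small. These genes were selected for a small difference at 1 hour, so their 1-hour values describe the selection.

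The lists outside the ERK response showed little difference. Of 20 androgen-responsive genes, 20 S phase and mitosis genes and 12 housekeeping genes, none passed at any fold, and the medians were 0.04, 0.00 and −0.06. Over all genes tested, 0.941% were higher and 0.118% lower with EGF at any fold. A count of none in lists of this size is near that share and says little by itself. The extremes were STEAP4 (0.41) and UAP1 (−0.08) in the androgen list, MKI67 (0.34) and CCNB1 (−0.19) in the mitosis list, and SDHA (0.03) and B2M (−0.22) among the housekeeping genes, each with an adjusted P value above 0.6. Extremes of other lists that did not pass were CNN1 (1.55, adjusted P = 0.521) and TGFB1I1 (−0.21) among the cytoskeletal genes, IRS1 (0.54) in the PI3K-FOXO list, ID1 (−0.44) among the other immediate early genes and ELK3 (−0.04) in the EGR, NR4A and SRF-TCF list.

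Whether the 1-hour difference lasted was asked of the 4-hour libraries, which share no library with the 1-hour comparison. At 5 minutes no gene passed the test between the ligands (0 called and 0 at any fold by edgeR, with 184 genes at an unadjusted P value under 0.05). The 5-minute log2 differences of the 29 genes ran from −1.09 to 3.85, so equal levels were not shown. At 4 hours 29 genes were called over the whole table, 0.171% of those tested, and 9 of the 29 genes from 1 hour were called at 4 hours, 9 of 9 higher with EGF: EGR4 (2.85), EGR3 (2.09), MMP1 (1.78), ARC (1.68), EGR2 (1.44), TIMP3 (1.17), FGL2 (1.13), MMP10 (1.10) and CD4 (1.02). The EGR4 difference at 4 hours rests on low levels, with means of 0.240 CPM with EGF and 0.0324 CPM with NRG-1. Its change from the 1-hour difference did not pass the test (adjusted P = 0.266, edgeR). RGS2 (0.96), MMP13 (0.89) and ERRFI1 (0.29) passed under the fold limit. With EGF, 24 of the 29 genes had their highest mean level at 1 hour among CSS, 5 minutes, 1 hour and 4 hours, and MMP1, FGL2, MMP10, MMP13 and CLDN1 had it at 4 hours. MMP10 reached 277, 292, 122 and 154 CPM with EGF at 4 hours and 118, 116, 65.4 and 90.5 CPM with NRG-1, so each EGF library at 4 hours was above all NRG-1 libraries.

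The test of the 1-hour difference against the 4-hour difference passed at any fold in 8 of the 29 genes, against 0.506% of genes tested. The 29 genes were chosen for a large 1-hour difference, which favors a larger difference at 1 hour than at 4 hours, so the direction is a description. In 7 of the 8 the difference was larger at 1 hour: FOSB, C8orf4, CYR61, ATF3, LURAP1L, NR4A1 and ERRFI1. FOSB had returned to 0.806 to 0.969 CPM with EGF and 0.702 to 1.57 CPM with NRG-1 at 4 hours, with a difference of −0.46 there (adjusted P = 0.589). EGR3 was the gene whose log2 difference grew (adjusted P = 0.0021), although its level had dropped: it stood at 15.5, 16.6, 7.20 and 7.04 CPM with EGF and 3.06, 2.98, 2.26 and 2.13 CPM with NRG-1 at 4 hours. TUFT1, under the fold limit, changed direction, from 0.73 at 1 hour to −0.50 at 4 hours (adjusted P = 3.2e-08 for the change). At 4 hours its levels were 35.3 to 38.3 CPM with EGF, below the 48.5 to 55.8 CPM of CSS. With NRG-1 they were 51.6 to 54.8 CPM, within the CSS range.

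**Figure D4:**
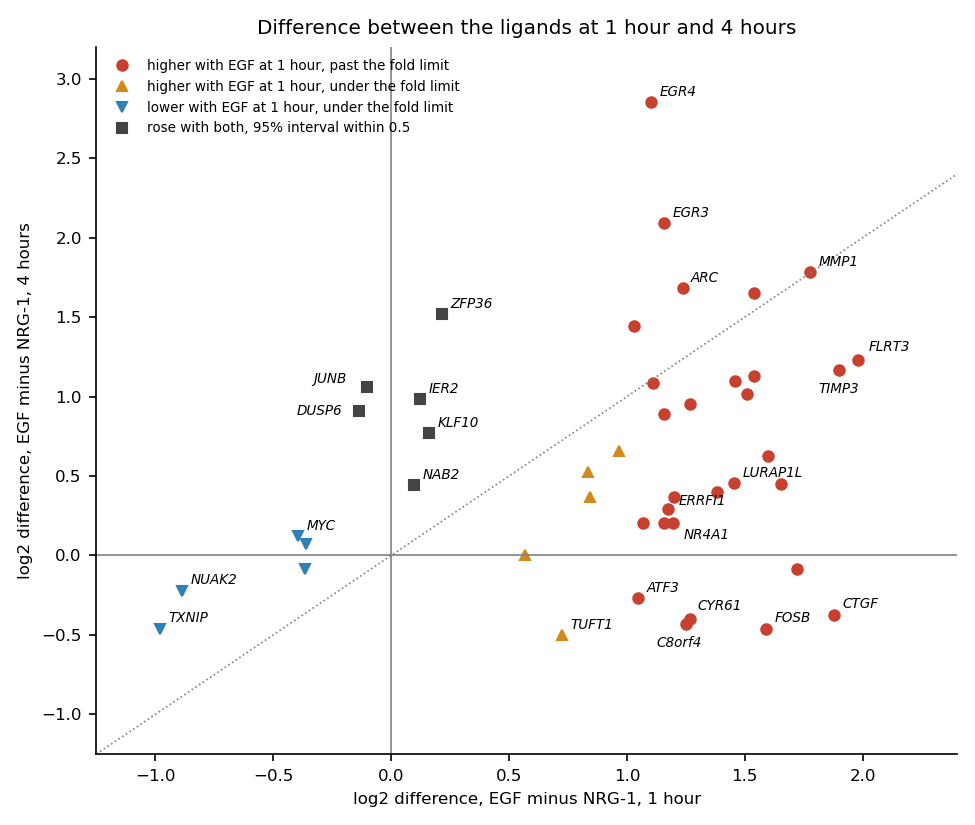
Log2 difference between EGF and NRG-1 at 1 hour (x axis) and 4 hours (y axis) for the called genes, the named genes under the fold limit in each direction, and the 6 genes selected for a rise with both ligands and a small difference at 1 hour; the dotted line marks equal differences. FOSB, CYR61 and C8orf4 lie below 0 at 4 hours, whereas EGR3 and EGR4 lie above the dotted line. The EGR4 levels at 4 hours are low, and its change between the times did not pass the test.

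The 6 genes selected for a small 1-hour difference took the other course. They were also chosen for a strong rise with both ligands, so their count at 4 hours is a description. Over all genes tested, 212 of 16995 were higher with EGF at 4 hours at any fold (edgeR, adjusted P value under 0.05). At 4 hours 5 of the 6 were higher with EGF: ZFP36 by 1.52 (adjusted P = 1.54e-10), JUNB by 1.06 (adjusted P = 5.4e-06), IER2 by 0.98 (adjusted P = 2.19e-07), DUSP6 by 0.91 (adjusted P = 7.39e-06) and KLF10 by 0.77 (adjusted P = 1.35e-06), while NAB2 was at 0.44 (adjusted P = 0.193). JUNB stood at 124, 122, 130 and 128 CPM with EGF and 51.6, 53.9, 73.9 and 64.7 CPM with NRG-1 at 4 hours. All EGF libraries were then above all NRG-1 libraries, with both groups below their 1-hour levels. DUSP6 instead went up further with EGF, to 22.9 to 31.7 CPM, and stayed at 14.0 to 15.0 CPM with NRG-1. EGR1 differed by 3.10 at 4 hours (adjusted P = 1.12e-06) and FOS by 1.11 (adjusted P = 0.019), where the 1-hour intervals had included 0. The drop in MYC was also limited to 1 hour, since at 4 hours it was at 418 to 433 CPM with EGF and 382 to 406 CPM with NRG-1 (0.12, adjusted P = 0.347), and the change in its difference passed the test (adjusted P = 0.000223).

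**Figure D5:**
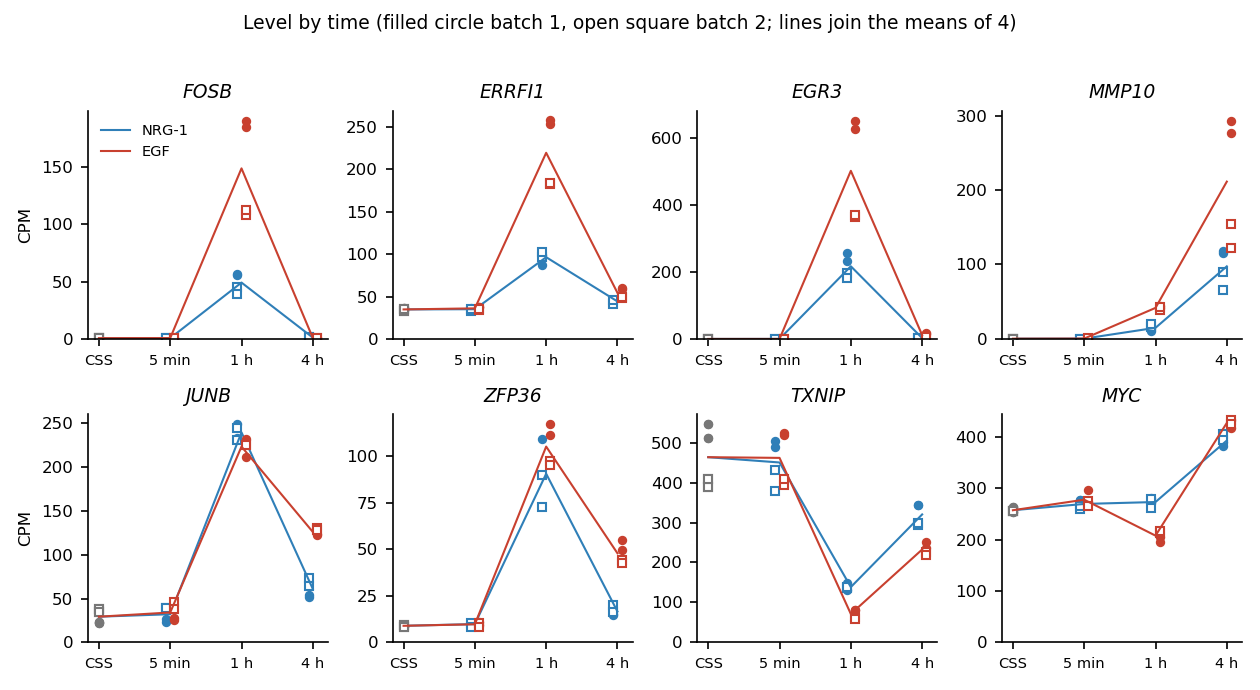
CPM (y axis) in CSS and after 5 minutes, 1 hour and 4 hours (x axis) with EGF or NRG-1 for 8 genes, with filled circles for batch 1, open squares for batch 2 and lines joining means of 4 libraries. FOSB, ERRFI1 and EGR3 peak at 1 hour and higher with EGF, JUNB and ZFP36 peak at like levels and part at 4 hours, and TXNIP and MYC are lowest with EGF at 1 hour.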

How the data were processed

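The 32 libraries were paired-end, strand-specific poly(A) RNA-Seq of LNCaP cells. Per the submitters' processing notes, the authors trimmed reads with Trimmomatic 0.36 and used STAR 2.7.0f, RSEM and hg19. The authors deposited RSEM expected counts per gene, of which 11.176% of values were not whole, and TPM values, which are scaled for transcript length and library. After rounding, the 16995 genes that reached 5 counts in 3 or more libraries entered edgeR 4.0.16 (R 4.3.3; TMM normalization, quasi-likelihood F test, Benjamini-Hochberg adjustment over all genes tested) with all 32 libraries of 8 groups and batch as a term. Genes were called at an adjusted P value under 0.05 and a log2 difference beyond 1. CPM values use TMM-scaled library sizes and SEs are those of the fit. Totals of 63822654 to 92401724 per library leave the genes with the fewest counts imprecise.

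Named genes were every called gene (per-library CPM for the 12 largest differences with average log2 CPM of at least 1, and for others by role), the 5 genes in each direction with the lowest adjusted P value under the fold limit, the extremes of each list, the 6 genes that rose with both ligands, and ERBB receptors and ligands. Other list members, KLF6 and per-library values beyond these 12 were chosen after their values were seen. The members, lists and tests were chosen with earlier results of these data known. The lists are described by counts and medians, with no set test.

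Replicates within a batch differed by more than sampling noise (chi-square per degree of freedom 12.5 to 171 over 12 pairs). Samples with the same batch and replicate number had deviations from the group means that were positively correlated (correlations 0.22, 0.25, 0.26 and 0.33). In batch 1, however, the highest correlations with another number were larger (0.26 and 0.28), and in batch 2 they were smaller (0.11 and 0.18), so the joint deviation did not follow the replicate number in batch 1. A fit with a replicate block was also made. Other alternatives were DESeq2 1.42.0, its size factors, other filters, no batch term, single batches, no fold limit, limma 3.58.1 on log2(TPM + 1) or log2(TPM + 0.1), and leaving out each library. The scripts were tested on simulated data.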

Additional observations from a re-analysis of the deposited data

Results flagged for a closer look

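In 3 of 142 groups of 4 libraries for the named genes (2.11%), the highest or lowest library stood apart from the rest by Dixon's test. The test's rate of about 1 in 20 by chance assumes 4 libraries that differ only by random error. Each group holds 2 batches, and a gap between them widens the range, so 2.11% cannot be set against that rate. GPR183 with EGF at 1 hour was at 0.437 CPM in batch 1 replicate 2, against 0.231 to 0.264 in the other 3. CLDN1 with EGF at 1 hour was at 1.59 CPM in batch 2 replicate 2, against 0.916 to 1.02. MMP14 with NRG-1 at 1 hour was at 0.0397 CPM in batch 1 replicate 1, against 0.0654 to 0.0705, a range of a few reads.

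The difference between the ligands at 1 hour differed from that at 4 hours in 19 of 71 named genes (edgeR, adjusted P value under 0.05 for the difference of the log2 differences). Over all genes tested the share was 0.506%. Many of the named genes were chosen by their 1-hour difference, which favors a change by 4 hours, so the count is a description. The 1-hour difference exceeded the 4-hour difference for FOSB by 2.05, C8orf4 by 1.68, CYR61 by 1.66, ATF3 by 1.32, TUFT1 by 1.23, LURAP1L by 1.00, NR4A1 by 0.99, ERRFI1 by 0.88 and ELF3 by 0.56. The reverse held for EGR3 (−0.93) and for genes selected for a small difference at 1 hour: ZFP36 (−1.31), JUNB (−1.16), DUSP6 (−1.05), IER2 (−0.86) and KLF10 (−0.61). For genes lower with EGF at 1 hour, the drop was larger at 1 hour than at 4 hours for TXNIP (−0.52), MYC (−0.51), PARS2 (−0.43) and ARRDC4 (−0.28).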

How the results depend on the processing

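Against 29 calls between EGF and NRG-1 at 1 hour, 13 were made with at least 10 counts in every library, 4 in batch 2 alone, 180 without the fold limit, and 18 by limma on log2(TPM + 1) with or without a filter on TPM. DESeq2 gave 27 (25 shared with the 29), its size factors 29, no filter 27, no batch term 21, the compared groups alone 20, batch 1 alone 43 (25 shared), limma on log2(TPM + 0.1) 31 (23 shared) and the batch-by-group term, added after seeing the data, 32 (25 shared). The replicate block gave 36 calls, all 29 among them, of which 35 were higher and 1, PYGM, was lower with EGF, and moved no count of calls by more than 1.5 times (19, 309 and 181 in the other comparisons). For 1 hour against 4 hours, 14 calls became 8 without the batch term, 29 in batch 1 alone, 0 in batch 2 alone (edgeR; 376 genes at an unadjusted P value under 0.05) and 86 without the fold limit. For EGF against CSS, 293 calls became 185 with the stricter count filter, 1617 without the fold limit and 146 by limma on log2(TPM + 1) with or without its filter. For NRG-1 against CSS, 168 became 105, 1144, and 78 with or 77 without that filter. The share of higher calls without the fold limit was 63.08% (84.64% with it) for EGF and 66.08% (81.55%) for NRG-1. Leaving out 1 library gave 22 to 30 calls between the ligands at 1 hour, 9 to 16 for 1 hour against 4 hours (lowest without EGF 1 hour batch 1 replicate 1), 266 to 292 for EGF and 156 to 175 for NRG-1 against CSS. For the 61 genes that passed the test among the named genes and all members of the lists, 1073 of 1258 values under the alternatives kept it. Of the rest, 185 did not (60 of these in a single batch) and 0 changed direction. The cause of these shifts was not tested. At this depth, calls of genes with few counts depended on single libraries.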

Other observations

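Genes whose symbol begins with ZNF, most of which encode zinc-finger proteins of largely unknown targets, made up 8 of the 20 genes lower with EGF (40%), 5 of the 160 genes higher with EGF (3.12%) and 516 of the 16995 genes tested (3.04%). The name was chosen after these genes were seen, and the share was not tested.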
